A study of Mus musculus with 12 samples.

Results

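The gene set described here holds the enzymes, transporters and regulators that carry glucose to lactate and through the pentose phosphate pathway. It is a list of 33 genes named for their function, with no threshold on a measured value, and it was drawn up with earlier results of these data known. A probe set annotated to a single gene symbol was found for 30 of the 33 genes, and the brightest one stood for each gene. Gpi1, Eno1 and G6pdx had no such probe set and were not analysed here. Eno2, the neuronal enolase, was dim on every array, with intensities from 2.55 to 5.13, and fell under the filter of 7.7 on the mean intensity, the 40th percentile of all probe sets. The other 29 genes were tested among 12573 genes in all.

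Glycolysis splits glucose into pyruvate in the cytosol and yields ATP and NADH. Lactate dehydrogenase then turns pyruvate into lactate, which leaves the cell through monocarboxylate transporters. The pentose phosphate pathway branches off at glucose 6-phosphate: its oxidative arm makes NADPH, and its non-oxidative arm exchanges sugars with glycolysis and supplies ribose for nucleotides. Leukemia cells and neutrophils are both known for high use of glucose. Rictor is a core subunit of mTORC2, a kinase complex that phosphorylates AKT, and AKT signalling is known to raise glucose uptake and glycolysis.

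The study compared mouse leukemia cells with and without Rictor in leukemias driven by either of 2 MLL fusion genes, MLL-AF9 and MLL-NRIP3. The 4 groups of 3 arrays were MLL-AF9 control (Rictor wild type), MLL-AF9 Rictor-deleted (RictorΔ/Δ), MLL-NRIP3 control (Rictor wild type) and MLL-NRIP3 Rictor-deleted (RictorΔ/Δ). All were K+G- bone marrow leukemia cells sorted from recipients of a first transplantation when CD45.2+ cells made up more than 50% of their white blood cells. The labels also name peripheral blood as the host tissue. The labels used here do not give the means by which Rictor was deleted, the age of the mice or whether each array came from a separate mouse, so the p-values measure the spread between these arrays, which may be technical. RNA was hybridised to Affymetrix arrays, and the deposited value is 1 linear intensity for each probe set and array.

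Median intensity was 8.16 to 8.36 on the MLL-AF9 arrays and 13.6 to 14.2 on the MLL-NRIP3 arrays, so levels are not on 1 scale across the models and were compared within a model only. Rictor has 5 probe sets, of which only the brightest was examined here, and that probe set did not separate the genotypes. It read 86.8 ± 4.80 in controls and 87.5 ± 9.26 in deleted cells of the MLL-AF9 model, and 113 ± 26.0 and 104 ± 18.6 in the MLL-NRIP3 model (SD, n = 3). The labels do not say whether it lies in the deleted part of the gene, so it does not check the labels. Within MLL-AF9 leukemia the genotypes also differed in Xist (2387 ± 48.5 in controls, 98.5 ± 95.0 in deleted cells) and in the Y-linked Eif2s3y (4.97 ± 2.46 and 162 ± 20.9, SD, n = 3), so that genotype and sex of the cells cannot be told apart there. In MLL-NRIP3 leukemia neither gene was called. Kit, the receptor often used to sort immature cells, read 195 ± 36.4 and 143 ± 12.2 in the MLL-AF9 model and 341 ± 43.7 and 524 ± 102 in the MLL-NRIP3 model in control and deleted cells (SD, n = 3). It was called in neither model (limma, adjusted p = 0.056 and 0.14). Every deleted array was below every control in MLL-AF9 and above every control in MLL-NRIP3 leukemia. The difference between the 2 Kit responses was called (log2 0.98 ± 0.22, SE, limma, adjusted p = 0.027). The MLL-NRIP3 control arrays 1 and 2 stood apart in the mean log2 signal of 18 hybridization control probe sets, at 11.22 and 10.62 against 9.38 to 9.59 on the other 4 arrays of that model. The ratio of 5′ to 3′ signal, a sign of RNA quality, was also lower on them, at 0.562 and 0.738 for Gapdh against 0.881 to 0.965 on the other 4, and at 0.448 and 0.474 for Actb against 0.614 to 0.714. Among the MLL-AF9 arrays control 3 stood apart in the same way, by less in hybridization signal (9.52 against 9.05 to 9.26). Its ratios were 0.901 for Gapdh against 1.01 to 1.09, and 0.521 for Actb against 0.607 to 0.667. The part of RNA quality in the MLL-AF9 results was not tested beyond leaving out arrays.

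In MLL-AF9 leukemia 5 of the 29 tested members rose in Rictor-deleted cells and 0 fell, where a call means an adjusted p under 0.05 in limma over all genes tested. They were the glucose transporter Slc2a3, the hexokinase Hk1, the ATP-producing enzyme Pgk1, the regulator Pfkfb4 and the pentose phosphate enzyme Rpia. Of all genes tested, 8.26% were called in either direction and 3.8% were called higher, against 17.2% of the members. Slc2a3 was the only member to change by 2-fold or more, and the other 4 rose by 1.15-fold to 1.33-fold. In MLL-NRIP3 leukemia 0 of the 29 members were called, against 1.53% of all genes, while 5 members (17.2%) had an unadjusted p under 0.05, near the 17.7% of all genes. The difference between the responses of the models was called for 1 member, Slc2a3, or 3.45% of the members against 4.29% of all genes. Without MLL-AF9 control 3 or deleted array 2, 2 members (6.9%) were called in that model, Slc2a3 and Rpia, against 5.72% and 4.63% of all genes. The difference was called for 7 members without MLL-NRIP3 control 3, against 11.2% of all genes, and for 11 with array weights, against 20.1%.

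**Figure D1:**
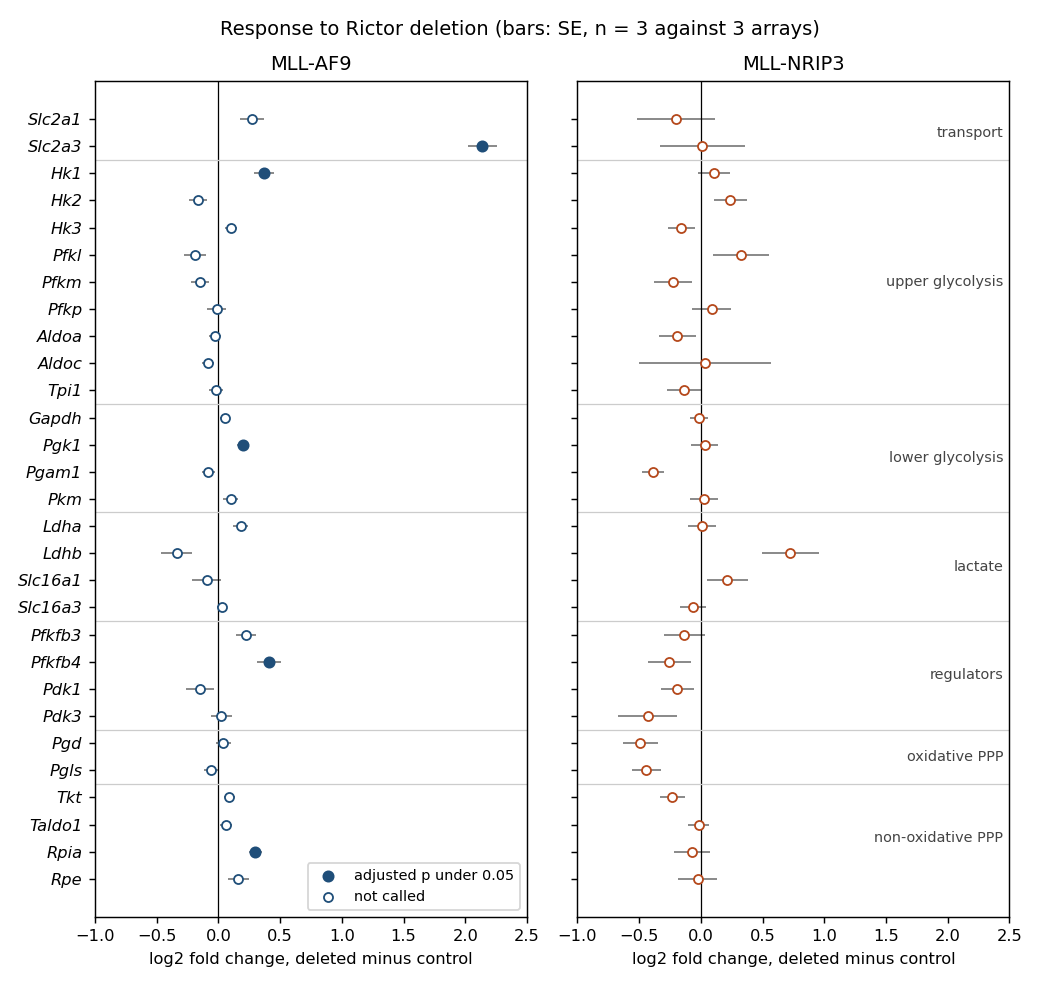
Log2 fold change of each of the 29 tested members, deleted minus control, in MLL-AF9 (left) and MLL-NRIP3 leukemia (right), ordered by role. Points are estimates from 3 against 3 arrays, bars are standard errors and filled points are called at an adjusted p under 0.05. Filled points appear on the left only, with Slc2a3 at 2.14 far to the right of the other 4.

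Slc2a3 encodes GLUT3, a high-affinity glucose transporter. In the MLL-AF9 model it read 58.5, 44.3 and 46.6 on the control arrays and 327, 258 and 240 on the deleted arrays. Every deleted array lay far above every control array. The mean rose from 49.8 ± 7.63 to 275 ± 46.0 (SD, n = 3), a log2 fold change of 2.14 ± 0.12 (SE) or 4.40-fold on the log2(intensity + 16) scale (limma, adjusted p = 1.3e-06). In the MLL-NRIP3 model the same probe set read 326, 126 and 131 on the control arrays and 253, 158 and 141 on the deleted arrays. Those groups overlapped, and their spread was carried by control array 1 and deleted array 1. Their means were 194 ± 114 and 184 ± 60.2 (SD, n = 3), with a log2 fold change of 0.01 ± 0.35 (SE, limma, adjusted p = 0.99). The difference between the responses, MLL-NRIP3 minus MLL-AF9, was -2.13 ± 0.42 on the log2 scale (SE, limma, adjusted p = 0.012).

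A further Slc2a3 probe set moved the same way. It averaged 8.95 ± 0.386 on MLL-AF9 control arrays and 70.3 ± 15.9 in MLL-AF9 deleted cells (SD, n = 3), a log2 fold change of 1.77 with an adjusted p of 1.2e-05 over all 27061 probe sets tested one by one in limma. In the MLL-NRIP3 model it averaged 50.5 ± 37.1 in controls and 33.6 ± 14.3 in deleted cells (SD, n = 3) and was not called. The remaining 2 Slc2a3 probe sets were dim in every group, and with the log2 values of all 4 probe sets averaged the log2 fold change was 0.98 in MLL-AF9 leukemia, still called. The call in MLL-AF9 leukemia was kept under all 18 alternatives, with log2 fold changes from 0.98 to 2.44. The difference between the models was lost under 1 of 26, which had the signal of the hybridization controls as a covariate (-1.65, adjusted p = 0.0534 in limma).

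Markers of mature neutrophils moved with Slc2a3 in the MLL-AF9 model. Of 13 listed markers, Retnlg and Ly6g had no probe set used here, and all 11 others were called higher in MLL-AF9 deleted cells, with a median log2 fold change of 1.38. Their summed intensity was 9078 to 13150 on the control arrays and 28290 to 30900 on the deleted arrays. With a spread shared by all 12 arrays the MLL-AF9 calls of Lcn2, Cd177, Itgb2l, Mmp8 and Cxcr2 were kept. Those of Ltf, Camp, Ngp, S100a8, S100a9 and Mmp9 were lost (limma, adjusted p from 0.074 to 0.53). In the MLL-NRIP3 model 3 of the 11 were called lower (Ngp, S100a8 and S100a9), and the sum was 4899 to 21340 on the control arrays and 1667 to 1989 on the deleted arrays. There, deleted array 1 had a Slc2a3 intensity of 253 at a neutrophil sum of 1744, and control array 1 had 326 at a sum of 21340. Monocyte and macrophage markers were lower in MLL-AF9 deleted cells (7 of 9 called lower, sums of 2349 to 2461 in controls and 1783 to 1959 in deleted cells), as were 4 of 7 tested mast cell, basophil and eosinophil markers. In MLL-NRIP3 deleted cells 2 of those 7 were called higher, Cpa3 and Hdc, with sums over the list of 746 to 784 in controls and 1130 to 2713 in deleted cells, and the megakaryocyte marker Itga2b was called higher (42.6 ± 3.75 and 117 ± 15.5, SD, n = 3). Of 7 tested B cell markers, Cd79b and Ighm were called lower in MLL-AF9 and Ighm in MLL-NRIP3 deleted cells, and 0 were called higher. Ighm read 1113, 759 and 195 on MLL-NRIP3 control arrays and 59.6, 35.4 and 60.2 on the deleted arrays. The sorted cells were measured in bulk, so fewer cells of a type and less RNA per cell cannot be told apart. The cells had been sorted as K+G-, a gate that the labels do not spell out, and the part of neutrophils or of other cells in the Slc2a3 result was not tested.

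**Figure D2:**
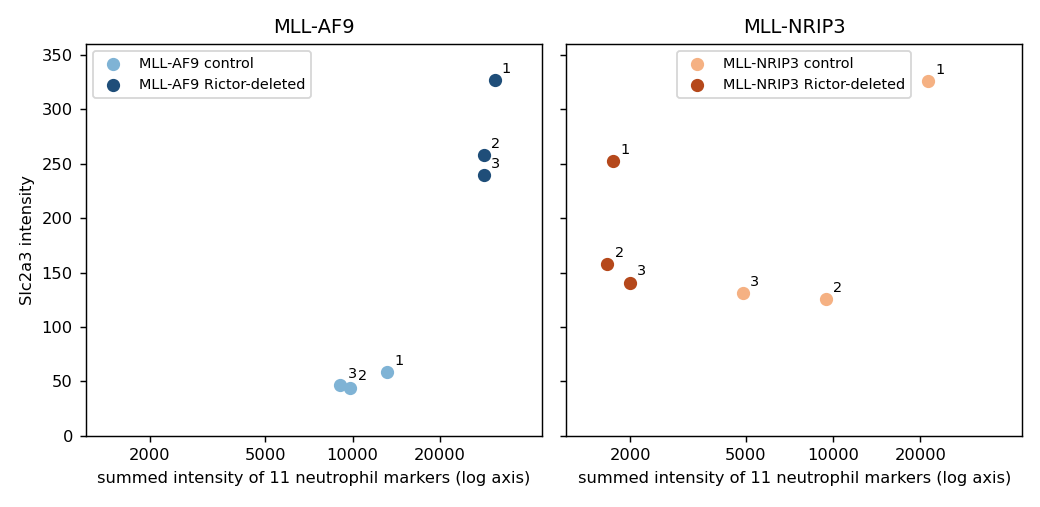
Slc2a3 intensity on each array (linear y axis) against the summed intensity of 11 neutrophil markers (log x axis), with MLL-AF9 arrays left and MLL-NRIP3 arrays right, each point numbered by its replicate. The MLL-AF9 groups are apart on both axes, whereas the MLL-NRIP3 groups are apart in the neutrophil sum and overlap in Slc2a3.

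The other glucose transporter of the set, Slc2a1 or GLUT1, was not called in either model. It read 75.8, 81.4 and 86.7 on MLL-AF9 control arrays and 89.5, 119 and 98.2 in deleted cells, so that the groups were apart by a narrow gap (log2 fold change 0.27 ± 0.10, SE, limma, adjusted p = 0.12). Both further Slc2a1 probe sets overlapped in that model, with log2 fold changes of 0.11 and 0.16. In MLL-NRIP3 leukemia its groups overlapped, with 104 to 213 in controls and 91.5 to 203 in deleted cells.

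Promoter windows are shown for the members called in MLL-AF9 leukemia, with ACGTG marked, the core letters that hypoxia-inducible factors are known to bind. No binding was measured. The table has no window of Slc2a3, and those of the other 4, from RefSeq on build GRCm38.p6, run from 250 bases before to 50 bases after a start and are printed 5′ to 3′ on the gene's strand, with ACGTG, or CACGT where it lies on the other strand, in capitals. Hk1 has 2 windows in the table, of which the one with matches is shown (chr10:62340372-62340671, minus strand). The Pgk1 window is chrX:106186850-106187149 (plus strand), the Pfkfb4 window is chr9:108991652-108991951 (plus strand) and the Rpia window is chr6:70792126-70792425 (minus strand).
Hk1: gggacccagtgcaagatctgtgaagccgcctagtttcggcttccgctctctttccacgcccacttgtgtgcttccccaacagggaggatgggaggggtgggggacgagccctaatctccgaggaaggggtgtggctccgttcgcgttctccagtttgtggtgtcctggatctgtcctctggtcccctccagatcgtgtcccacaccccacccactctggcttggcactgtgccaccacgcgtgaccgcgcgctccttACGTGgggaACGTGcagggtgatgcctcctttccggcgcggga
Pgk1: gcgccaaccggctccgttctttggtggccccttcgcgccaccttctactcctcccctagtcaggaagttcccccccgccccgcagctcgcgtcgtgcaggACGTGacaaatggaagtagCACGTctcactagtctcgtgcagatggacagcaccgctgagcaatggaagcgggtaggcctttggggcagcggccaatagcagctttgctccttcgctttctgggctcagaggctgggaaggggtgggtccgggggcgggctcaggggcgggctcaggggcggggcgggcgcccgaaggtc
Pfkfb4: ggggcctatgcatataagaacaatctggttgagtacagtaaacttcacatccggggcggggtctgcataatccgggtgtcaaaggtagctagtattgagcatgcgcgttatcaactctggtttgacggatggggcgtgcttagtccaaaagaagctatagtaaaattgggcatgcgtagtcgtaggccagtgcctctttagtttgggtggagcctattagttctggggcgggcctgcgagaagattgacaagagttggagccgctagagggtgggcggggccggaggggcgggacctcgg
Rpia: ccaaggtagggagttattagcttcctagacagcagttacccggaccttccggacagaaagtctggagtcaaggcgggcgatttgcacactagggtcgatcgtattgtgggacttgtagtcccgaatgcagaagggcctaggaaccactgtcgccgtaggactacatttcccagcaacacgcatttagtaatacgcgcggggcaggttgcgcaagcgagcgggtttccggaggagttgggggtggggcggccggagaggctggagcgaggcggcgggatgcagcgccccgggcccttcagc

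The Hk1 and Pgk1 windows each hold 2 copies of ACGTG, and these letters are not in the Pfkfb4 and Rpia windows shown. Both copies in the Hk1 window lie after the start, whereas both in the Pgk1 window lie before it. Over both strands, 19 of 41 member windows (46.3%) held ACGTG, against 19.6% of all 32851 windows in the table and 24.9% of the 13014 windows of genes tested on the arrays. The median GC content of the member windows was 60.7%, close to the 60.3% of tested genes. The 29 members with a window include the untested Eno2 and not Slc2a3. ACGTG was found for 16 of them, including Ldha, Pkm, Pgam1 and Slc2a1, which were called in neither model. The longer E-box letters CACGTG, which contain ACGTG, were found in 9.76% of member windows, 9.67% of the windows of tested genes and 7.15% of all windows, for the members Ldha, Pfkfb3, Pfkm and Slc16a1. A match describes the letters only.

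Among the 9 tested genes from hexokinase to triose phosphate isomerase, Hk1 was the only one called in MLL-AF9 leukemia. Hk1 is the broadly expressed hexokinase that traps glucose as glucose 6-phosphate. Its intensities were 204, 168 and 173 on the control arrays and 235, 258 and 226 on the deleted arrays. All deleted arrays were above all control arrays. The log2 fold change was 0.37 ± 0.08 (SE) or 1.29-fold, from a mean of 182 ± 19.2 to 240 ± 16.5 (SD, n = 3, limma, adjusted p = 0.017). The call was lost without control 2 (adjusted p = 0.0548), control 3 (0.0614) or deleted array 2 (0.0839), with a spread shared by all 12 arrays (0.184) and with the mean over its 2 probe sets (log2 fold change 0.23, 0.0504). In MLL-NRIP3 leukemia Hk1 read 417, 428 and 479 in controls and 533, 489 and 411 in deleted cells, with overlapping groups and a log2 fold change of 0.10 ± 0.13 (SE, limma, adjusted p = 0.72).

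The remaining hexokinases were not called. Hk2, the inducible form, read 212, 258 and 231 on MLL-AF9 control arrays and 201, 212 and 205 in deleted cells, a log2 fold change of -0.17, against 0.24 in MLL-NRIP3 leukemia. Hk3, the form typical of myeloid cells, had log2 fold changes of 0.10 in MLL-AF9 and -0.16 in MLL-NRIP3 leukemia. A further Hk3 probe set had -0.05 and -0.30 in the same order. Of the phosphofructokinase subunits, which form the committed step of glycolysis, Pfkl had -0.19 in MLL-AF9 and 0.33 in MLL-NRIP3 leukemia, and all 3 of its probe sets were negative in the former and positive in the latter. Pfkm had -0.15 and -0.22, and Pfkp had -0.01 and 0.09. The aldolase Aldoa and the triose phosphate isomerase Tpi1 had log2 fold changes between -0.19 and -0.02 in both models. Aldoc, the brain-type aldolase, was the most variable member in MLL-NRIP3 leukemia, with 118, 42.6 and 128 in controls and 148, 152 and 28.1 in deleted cells. A single array in each of those groups was low, and the log2 fold change was 0.03 ± 0.54 (SE).

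In lower glycolysis Pgk1, phosphoglycerate kinase, was called in MLL-AF9 leukemia. It read 972, 1002 and 963 on the control arrays and 1138, 1147 and 1096 on the deleted arrays. The groups did not overlap, and the spread within each was small. The mean rose from 979 ± 20.3 to 1127 ± 27.4 (SD, n = 3), a log2 fold change of 0.20 ± 0.05 (SE) or 1.15-fold (limma, adjusted p = 0.024). Both further Pgk1 probe sets were positive, at 0.31 (called) and 0.17 (not called). The call was lost with the shared spread (adjusted p = 0.486) and without control 1 (0.054), control 3 (0.0583), deleted array 1 (0.0984) or deleted array 2 (0.0998). Pgk1 lies on the X chromosome, and the MLL-AF9 groups differed in sex. Over the 345 X-linked genes tested the median log2 fold change was -0.01 and 8.12% were called, against 8.29% of 12162 autosomal genes. Values over the whole chromosome do not show how a single gene differs by sex. The part of sex in the Pgk1 result was not tested. In MLL-NRIP3 leukemia Pgk1 read 1820, 1636 and 1752 in controls and 1828, 1985 and 1537 in deleted cells, with overlapping groups.

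Pgam1, phosphoglycerate mutase, follows Pgk1 in the pathway and had the smallest p of all members in MLL-NRIP3 leukemia. It read 1728, 1842 and 1593 on the control arrays and 1345, 1332 and 1257 on the deleted arrays, all 3 below all controls. The means were 1721 ± 124 and 1312 ± 47.5 (SD, n = 3), with a log2 fold change of -0.39 ± 0.09 (SE) that missed the threshold (limma, adjusted p = 0.084). In MLL-AF9 leukemia Pgam1 had -0.08, with overlapping groups. Gapdh, Pkm and the pyruvate-to-lactate enzyme Ldha had log2 fold changes of -0.01 to 0.03 in MLL-NRIP3 leukemia. In MLL-AF9 leukemia they had 0.05, 0.10 and 0.18. The Gapdh probe set used lies at the 3′ end. Those for its middle and 5′ end had 0.12 and 0.31 in MLL-NRIP3 and 0.09 and 0.16 in MLL-AF9 leukemia, none called. Ldha read 793, 844 and 747 on MLL-AF9 control arrays and 890, 957 and 858 in deleted cells, with the groups apart but no call (limma, adjusted p = 0.10).

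Ldhb, the lactate dehydrogenase subunit that favours the conversion of lactate to pyruvate, had estimates of opposite sign in the 2 models. It read 90.2, 66.6 and 55.7 on MLL-AF9 control arrays and 57.1, 49.8 and 48.7 in deleted cells. In MLL-NRIP3 leukemia it read 32.8, 47.7 and 36.3 in controls and 108, 73.3 and 50.6 in deleted cells. On the probe set used, the MLL-AF9 groups overlapped, and in MLL-NRIP3 leukemia every deleted array lay above every control array. The log2 fold changes were -0.34 ± 0.13 and 0.73 ± 0.23 (SE), neither called (limma, adjusted p = 0.14 and 0.16). Their difference, 1.06 ± 0.29, had an adjusted p of 0.06 and passed the threshold with quantile normalization (0.0471), median centring (0.037), the stricter filter on dim genes (0.0483), array weights (0.00171) or without MLL-NRIP3 deleted array 3 (0.0106). All 4 Ldhb probe sets were negative in MLL-AF9 and positive in MLL-NRIP3 leukemia. On each further probe set every MLL-AF9 deleted array lay below every control, whereas the MLL-NRIP3 groups overlapped. On these, MLL-NRIP3 deleted array 3 was within the range of the controls, as at 14.1 against 11.8 to 15.7. The lactate exporters Slc16a1 (MCT1) and Slc16a3 (MCT4) had log2 fold changes of -0.10 and 0.03 in MLL-AF9 and of 0.21 and -0.07 in MLL-NRIP3 leukemia, and were not called.

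**Figure D3:**
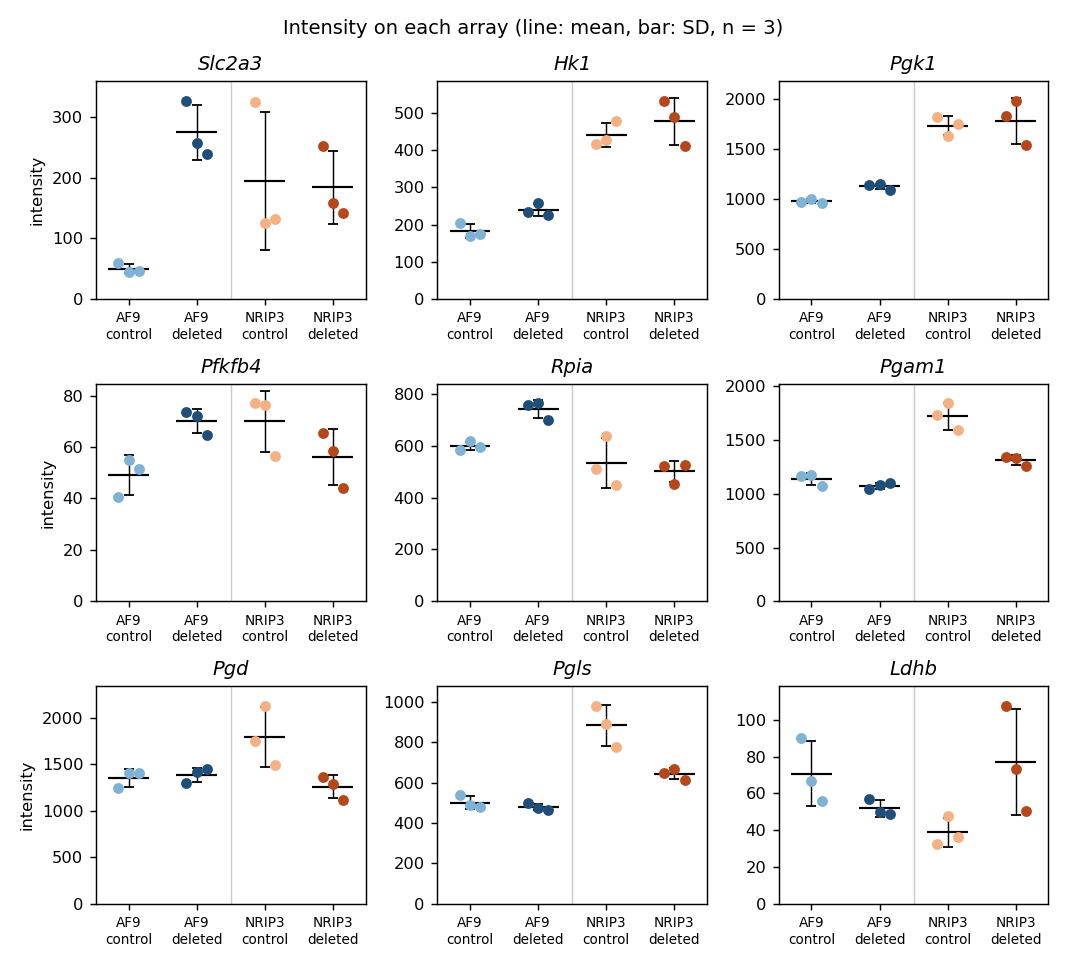
Intensity of 9 members on each array, in 4 groups of 3, with the group mean as a line and the SD as a bar. Each panel has its own y axis from 0, and levels of the 2 models are not on 1 scale. Slc2a3, Hk1, Pgk1, Pfkfb4 and Rpia are higher on all MLL-AF9 deleted arrays than on the controls, whereas Pgam1, Pgd and Pgls are lower on all MLL-NRIP3 deleted arrays.

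Among the regulators, Pfkfb4 was called in MLL-AF9 leukemia. It is a bifunctional enzyme that makes and removes fructose 2,6-bisphosphate, the activator of phosphofructokinase. It read 40.5, 55.1 and 51.6 on the control arrays and 73.5, 72.0 and 64.7 on the deleted arrays. The groups were apart, with control 1 the lowest array. The mean rose from 49.1 ± 7.63 to 70.0 ± 4.70 (SD, n = 3), a log2 fold change of 0.41 ± 0.10 (SE) or 1.33-fold (limma, adjusted p = 0.027). The call was lost with the shared spread (0.316) and on leaving out control 1 (0.0702), control 3 (0.0541), deleted array 1 (0.0975), deleted array 2 (0.0993) or deleted array 3 (0.0524), and with a pseudocount of 64 the log2 fold change was 0.25. In MLL-NRIP3 leukemia it read 77.0, 76.5 and 56.4 in controls and 65.6, 58.5 and 44.2 in deleted cells, with overlapping groups and a log2 fold change of -0.25 ± 0.17 (SE, limma, adjusted p = 0.48). The difference between the responses was -0.66 ± 0.20 (SE, limma, adjusted p = 0.09), and it was called with array weights (0.0255) or without MLL-NRIP3 control 3 (0.0212).

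Pfkfb3, the form with the highest kinase activity, read 53.4, 49.5 and 46.4 on MLL-AF9 control arrays and 63.2, 59.1 and 60.1 in deleted cells. These groups were apart, with a log2 fold change of 0.23 ± 0.08 (SE) that was not called (limma, adjusted p = 0.12). Its log2 fold change in MLL-NRIP3 leukemia was -0.13. The pyruvate dehydrogenase kinases Pdk1 and Pdk3, which hold pyruvate back from the mitochondria, had -0.15 and 0.02 in MLL-AF9 and -0.19 and -0.43 in MLL-NRIP3 leukemia. The probe sets used for all 4 regulators had negative estimates in MLL-NRIP3 leukemia, with 0 called, but both further tested Pdk1 probe sets were positive there, at 0.27 and 0.16. Over all members, 20 of 31 further probe sets had the sign of the one used in MLL-AF9 and 23 of 31 in MLL-NRIP3 leukemia.

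Both tested enzymes of the oxidative pentose phosphate arm were lower on all 3 MLL-NRIP3 deleted arrays than on all 3 controls, and neither was called. Pgls, the lactonase, read 981, 890 and 779 in controls and 650, 669 and 614 in deleted cells. Its means were 883 ± 101 and 644 ± 28.1 (SD, n = 3), a log2 fold change of -0.44 ± 0.11 (SE, limma, adjusted p = 0.11). Pgd, which releases carbon dioxide and makes the pathway's later NADPH, read 1747, 2126 and 1491 in controls and 1364, 1291 and 1120 in deleted cells. Its means were 1788 ± 320 and 1258 ± 126 (SD, n = 3), a log2 fold change of -0.49 ± 0.14 (SE, limma, adjusted p = 0.13). All 4 Pgd probe sets were negative there, from -0.46 to -0.67. In MLL-AF9 leukemia the log2 fold changes of Pgls and Pgd were -0.06 and 0.04, with overlapping groups. The differences between the responses were -0.38 ± 0.12 and -0.53 ± 0.16 (SE, limma, adjusted p = 0.11 and 0.093).

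Pgam1, Pgls and Pgd sat near the threshold in MLL-NRIP3 leukemia. Without control 3 all 3 were called, with log2 fold changes of -0.44, -0.53 and -0.61 (limma, adjusted p = 0.0317, 0.0306 and 0.03), and 6.86% of all genes were called. That setting keeps controls 1 and 2, the arrays with high hybridization control signal and low 5′ to 3′ ratios. Without controls 1 and 2 the log2 fold changes were -0.28, -0.27 and -0.25, and with the signal of the hybridization controls as a covariate they were -0.30, -0.25 and -0.32. Neither setting called any of the 29 members (0.215% and 0.239% of all genes called), and the part of RNA quality in these values was not tested beyond them. With a spread shared by all 12 arrays they were called too, as was Ldhb (adjusted p = 0.00367, 0.00753, 0.0168 and 0.0356). That setting called 13.8% of all genes and 13.8% of the members in MLL-NRIP3 leukemia, and 1.4% of all genes and 3.45% of the members in MLL-AF9 leukemia, where Slc2a3 alone remained. The replicate spread differed between the models: the median SD over all genes was 0.0757 and 0.0624 on the log2 scale on MLL-AF9 control arrays and deleted cells, and 0.146 and 0.136 in MLL-NRIP3 controls and deleted cells.

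In the non-oxidative arm Rpia, the isomerase that forms ribose 5-phosphate, was called in MLL-AF9 leukemia. It read 585, 618 and 595 on the control arrays and 760, 765 and 701 on the deleted arrays. The lowest deleted array was well above the highest control. The mean rose from 599 ± 16.8 to 742 ± 35.4 (SD, n = 3), a log2 fold change of 0.30 ± 0.05 (SE) or 1.23-fold (limma, adjusted p = 0.0061). The call was kept without each array in turn and lost only with the shared spread (adjusted p = 0.357). In MLL-NRIP3 leukemia Rpia read 511, 639 and 451 in controls and 524, 454 and 528 in deleted cells, with overlapping groups and a log2 fold change of -0.07 ± 0.15 (SE, limma, adjusted p = 0.83). The neutrophil and macrophage marker sums given above differed between the MLL-AF9 groups for Rpia, Hk1, Pgk1 and Pfkfb4 as for Slc2a3, and their part in these results was not tested.

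Tkt, transketolase, was higher on all MLL-AF9 deleted arrays (3066, 3187 and 3220) than on the controls (3007, 3059 and 2849). In MLL-NRIP3 leukemia it was lower on all deleted arrays (3488, 3771 and 3128) than on the controls (3906, 4480 and 3799). Neither gap was called, with log2 fold changes of 0.09 and -0.23 (limma, adjusted p = 0.28 and 0.27). Taldo1, transaldolase, had 0.06 and -0.02, and the epimerase Rpe had 0.16 and -0.02.

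Over the whole set, the groups were apart on one side for 12 of 29 members (41.4%) in MLL-AF9 leukemia, against 27.1% of all genes. Deleted cells were higher for 11 of these members (Gapdh, Hk1, Hk3, Ldha, Pfkfb3, Pfkfb4, Pgk1, Rpia, Slc2a1, Slc2a3 and Tkt) and lower for Hk2, while 11.4% of all genes were higher and 15.7% lower in this way. In MLL-NRIP3 leukemia the groups were apart for 5 members (17.2%), against 22.5% of all genes, a share below the background. Deleted cells were higher for Ldhb and lower for Pgam1, Pgd, Pgls and Tkt. These counts rest on the probe set used for each gene. In MLL-AF9 leukemia a further tested probe set overlapped for Hk3, Slc2a1 and Tkt, while those of Gapdh, Hk1, Pgk1 and Slc2a3 were also apart. In MLL-NRIP3 leukemia a further tested probe set overlapped for Ldhb and Tkt, while those of Pgd were also apart. The median log2 fold change of the members was 0.04 in MLL-AF9 leukemia and -0.07 in MLL-NRIP3 leukemia, beside medians over all genes of -0.01 and of 0.00 to 2 decimals. Estimates were positive for 17 of 29 members in MLL-AF9 and for 11 of 29 in MLL-NRIP3 leukemia, against 45.7% and 49.9% of all genes. The difference between the responses was positive for 6 of 29 members, against 51.4% of all genes, with a median of -0.17. A positive estimate in MLL-AF9 with a negative one in MLL-NRIP3 leukemia was found for 12 members (41.4%), against 20.7% of all genes.

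A single array carried much of the spread in MLL-NRIP3 leukemia. Deleted array 3 was the lowest of the 6 arrays for 20 of the 29 members (69%), against 29.3% of all genes, and the highest for 0. Its mean log2 value over the members was 8.55, against 8.80 to 8.91 on the other 5. Low values on it included Slc2a1 (91.5), Aldoa (1530), Aldoc (28.1), Tpi1 (989), Pkm (1296) and Ldha (1332), which were chosen for mention after their values were seen. Without this array the median log2 fold change of the members in MLL-NRIP3 leukemia was 0.02, with 16 of 29 positive, so its sign turned. The median difference between the responses was then -0.08, with 9 of 29 positive, and the count of members called in MLL-NRIP3 leukemia was 0. Its median intensity, 14.2, and its hybridization control signal, 9.44, were within or next to the range of the other deleted arrays.

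**Figure D4:**
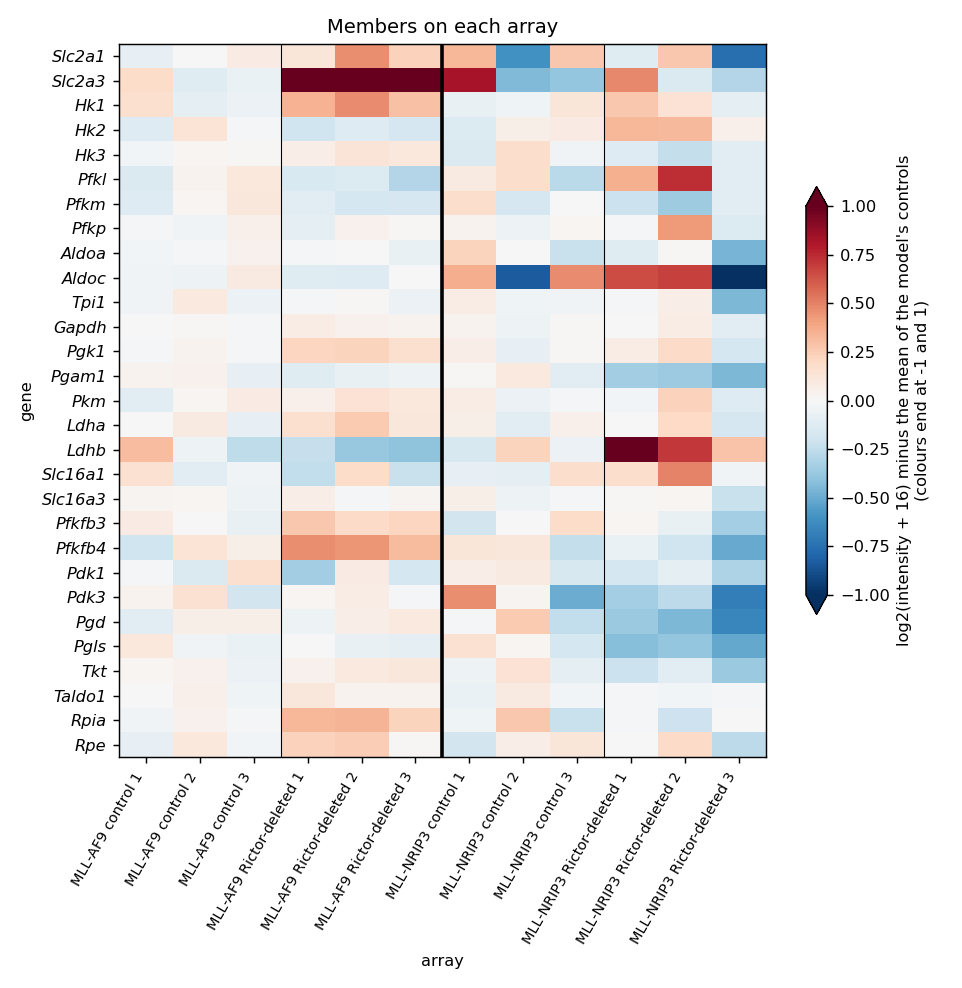
Value of each of the 29 tested members on each of the 12 arrays, as log2(intensity + 16) minus the mean of that model's controls, with red above and blue below it and colours ending at -1 and 1. Thin lines part the groups and the thick line parts the models. Slc2a3 is deep red on the 3 MLL-AF9 deleted arrays, and MLL-NRIP3 deleted array 3 is the bluest column.

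Genes next to the set in the pathway were mostly not called. Of 17 tested further isozymes and glucose transporters, 1 rose in MLL-AF9 leukemia: Adpgk, an ADP-dependent glucokinase, with a log2 fold change of 0.63 ± 0.12 (SE, limma, adjusted p = 0.0076). Of 18 tested genes of glycogen and glucose synthesis, 1 rose there: Pygl, the liver-type glycogen phosphorylase, with 0.34 ± 0.07 (SE, limma, adjusted p = 0.015). With a spread shared by all 12 arrays the calls of Adpgk and Pygl were lost (limma, adjusted p = 0.239 and 0.154). Neither list had a call in MLL-NRIP3 leukemia. The gluconeogenic enzyme Fbp1 differed in its response between the models, by -0.93 ± 0.24 (SE, limma, adjusted p = 0.049), with 0.30 in MLL-AF9 and -0.63 in MLL-NRIP3 leukemia, neither called. Among 13 tested genes of pyruvate entry into mitochondria, 8 of the serine branch and 6 of the hexosamine branch, 0 were called in either model. At an unadjusted p under 0.05 these 3 lists had 1, 1 and 2 genes in MLL-AF9 and 2, 4 and 2 genes in MLL-NRIP3 leukemia, where 21.8% and 17.7% of all genes passed that threshold.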

How the data were processed

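Total RNA from 12 samples was measured on Affymetrix arrays. Each deposited value is the linear intensity of a probe set. The methods of probe summarisation, background correction and normalization were not given in the sources used here. Of 45101 probe sets, 34958 had 1 gene symbol by the platform annotation, and the brightest over the 12 arrays stood for each of 18194 genes. A filter removed genes whose mean intensity lay below 7.7 (40th percentile). In log2(intensity + 16), deleted and control arrays of each model were compared with limma 3.58.1 in R 4.3.3 (lmFit, eBayes with a trend) on that model's 6 arrays (4 residual degrees of freedom), because the spread differed between models. The difference of responses used all 12 arrays (8 residual degrees of freedom). That fit takes 1 spread per gene for all 4 groups, although the spread differed between the models. For a gene whose spread comes mostly from 1 model, 8 degrees of freedom can be too many. Tests were 2-sided, with Benjamini-Hochberg adjustment over all genes tested. The fit was tested on simulated data. An exact permutation test of 3 against 3 arrays was not used. No 2 arrays of a group were copies: exactly equal values were found for 22 to 226 of 45101 probe sets per pair. Plots used matplotlib 3.10.9 under Python 3.11.15.

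The members and lists were chosen with earlier results of these data known. The named-gene rule gave every array's value for members called in any contrast and for the 3 members with the smallest p in each. Other members named with array values, and from other lists up to 4 genes called per contrast, are given as a description. Alternatives changed the spread, normalization, filter, pseudocount, choice of probe set, moderation, block, covariate or the arrays used. Testing each probe set on its own was an alternative chosen after seeing the data. Promoter windows are from a RefSeq table of build GRCm38.p6. The number of arrays limits the precision.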

Additional observations from a re-analysis of the deposited data

Results flagged for a closer look

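The response of Slc2a3, the glucose transporter GLUT3, differed between the 2 leukemias by the test of the difference itself. The log2 fold change on Rictor deletion was 2.14 ± 0.12 in MLL-AF9 and 0.01 ± 0.35 in MLL-NRIP3 leukemia (SE, 3 against 3 arrays), and the difference was -2.13 ± 0.42 (limma, adjusted p = 0.012 over all genes tested). Slc2a3 was higher on 3 of 3 MLL-AF9 deleted arrays than on any control array of that model, and the MLL-NRIP3 groups overlapped. A single further Slc2a3 probe set was bright enough to test and gave a difference of -2.11 (limma, adjusted p = 0.019 over all probe sets). The summed neutrophil markers moved in opposite directions in the 2 models, and their part in the difference was not tested. In MLL-AF9 leukemia genotype and sex of the cells cannot be told apart, so neither can their parts in the Slc2a3 response or in this difference.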

How the results depend on the processing

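With a spread shared by all 12 arrays, the members called numbered 1 in MLL-AF9 and 4 in MLL-NRIP3 leukemia, and the genes called numbered 176 and 1734, against 5, 0, 1039 and 192. The genes called in MLL-NRIP3 leukemia numbered 82 with the mean of probe sets, 27 without controls 1 and 2 and 30 with the signal of the hybridization controls as a covariate. The members called for the difference numbered 11 with array weights, 2 with quantile normalization, 2 with median centring, 2 with the 60th percentile filter and 0 with the hybridization covariate. Of all genes tested, those settings called 20.1%, 4.94%, 4.55%, 5.44% and 3.87%, in that order. Array weights called 2529 genes against 539. Leaving out each array in turn gave 2 to 4 members and 582 to 963 genes in MLL-AF9, 0 to 3 members and 30 to 862 genes in MLL-NRIP3 leukemia, and 1 to 7 members and 309 to 1405 genes for the difference. The highest counts in MLL-NRIP3 leukemia and for the difference came without MLL-NRIP3 control 3. The lowest for MLL-AF9 members came without control 3 or deleted array 2, for MLL-NRIP3 genes without control 2 and for genes of the difference without MLL-AF9 deleted array 1. Over all members and alternatives, 18 calls were lost, 31 were gained and 0 called values changed sign, while 82 uncalled estimates did. The causes of these changes were not tested.

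No sign was seen that the replicate numbers pair the arrays. Deviations of same-numbered arrays correlated at -0.0979, -0.0483 and 0.0249 in MLL-AF9 and at 0.0563, -0.135 and -0.0544 in MLL-NRIP3 leukemia. Those of different-numbered arrays correlated at -0.139 to 0.18 and at -0.0324 to 0.113. With 3 arrays in a group, these values cannot show that the arrays were not paired. With the replicate number as a block, 5 members in MLL-AF9, 0 in MLL-NRIP3 leukemia and 2 for the difference were called, the latter adding Pgd (-0.53, limma, adjusted p = 0.0474), and the genes called numbered 960, 163 and 457.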

Other observations

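Hypoxia-responsive genes outside glycolysis did not move in a single direction. Of 14 tested, Anxa2, a calcium-dependent membrane-binding protein, and Bhlhe40, a transcriptional repressor, rose in MLL-AF9 deleted cells, with log2 fold changes of 1.04 ± 0.12 and 0.57 ± 0.09 (SE, limma, adjusted p = 2.8e-04 and 0.0018). The collagen prolyl hydroxylase P4ha1 fell there (-0.27 ± 0.07, SE, limma, adjusted p = 0.041). With a spread shared by all 12 arrays the Anxa2 call was kept (limma, adjusted p = 0.0083). Those of Bhlhe40 and P4ha1 were lost (limma, adjusted p = 0.277 and 0.768). In MLL-NRIP3 leukemia 0 of the 14 were called. Of all genes tested, 8.26% were called in MLL-AF9 and 1.53% in MLL-NRIP3 leukemia. An unadjusted p under 0.05 was found for 7 of the 14 in MLL-AF9 and for 3 in MLL-NRIP3 leukemia, against 21.8% and 17.7% of all genes. Anxa2 read 1591, 1150 and 944 in MLL-NRIP3 controls and 685, 796 and 776 in deleted cells, and its response differed between the models by -1.70 ± 0.24 (SE, limma, adjusted p = 0.0020).

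Among 13 tested transcription factors and sensors of sugar and oxygen, the glucose sensor Mlxip and Txnip fell in MLL-AF9 deleted cells. The falls were 0.36 and 0.26 on the log2 scale (limma, adjusted p = 0.041 and 0.040). Both calls were lost with the shared spread (limma, adjusted p = 0.325 and 0.793). In MLL-NRIP3 leukemia Epas1, which encodes HIF-2α, rose from 6.75, 9.36 and 14.8 in controls to 50.8, 44.0 and 22.9 in deleted cells (log2 fold change 1.04 ± 0.20, SE, limma, adjusted p = 0.047). Usf2, an E-box-binding factor, fell there by 0.78 on the log2 scale (limma, adjusted p = 0.042). The calls of Epas1 and Usf2 were kept with the shared spread (limma, adjusted p = 0.0019 and 0.0015). Hif1a and Myc were called in neither model, with log2 fold changes of -0.14 and -0.20 in MLL-AF9 and 0.24 and 0.10 in MLL-NRIP3 leukemia.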
